A study of Mus musculus with 6 samples.

Results

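The mitochondrial solute carriers are the proteins that move metabolites across the inner mitochondrial membrane. Their genes were taken as the protein-coding rows of the deposited table whose mouse symbol is Slc25a followed by a number, or is Ucp1, Ucp2 or Ucp3. This gave 50 genes of 25690 rows, on 19 chromosomes, and 37 of them had a mean of at least 1 FPKM (fragments scaled by transcript length and library size) over the 6 libraries and were tested. RNA of mouse hepatic tissue had been sequenced in 3 libraries labelled hepatic FTO knockout and 3 labelled wildtype control. FTO is a demethylase of N6-methyladenosine in RNA, and the design asks how the liver transcriptome differs without it. The strain, age, sex, knockout allele and Cre driver were not given in the sources used here. Whether each library is a separate animal is not stated in the labels, so a p-value here reflects spread among libraries that may be only technical.

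Carriers of this family are built from repeats of a common fold and mostly work as exchangers, letting one solute into the matrix as another leaves. In hepatocytes they link cytosol and matrix in gluconeogenesis, the urea cycle, fatty acid oxidation, lipid synthesis and ATP supply. Adenine nucleotide and phosphate carriers serve oxidative phosphorylation, while the dicarboxylate and citrate carriers move the carbon used for glucose and fatty acid synthesis. The uncoupling proteins belong to the same family.

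Of the 37 tested carriers limma called 1 different between the groups, which is 2.70%, against 2.76% of all genes tested. It was Slc25a10, the dicarboxylate carrier, which exchanges malate or succinate for phosphate. Its level in the knockout was 49.7% of that in wild type. The other 36 tested carriers were not called. The 250 bases before the RefSeq start of Slc25a10 (GRCm38.p6, plus strand) are shown because this is the gene that fell. Those of Slc25a1, the citrate carrier (minus strand), are shown beside them as those of an abundant carrier of the same substrate group that was not called. Capitals mark matches to the motifs searched.

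Slc25a10, chr11:120491587-120491836: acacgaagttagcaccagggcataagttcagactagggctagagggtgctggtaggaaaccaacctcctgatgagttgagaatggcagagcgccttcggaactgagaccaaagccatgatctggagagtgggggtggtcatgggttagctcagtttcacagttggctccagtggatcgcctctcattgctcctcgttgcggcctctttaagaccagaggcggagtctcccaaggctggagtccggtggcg
Slc25a1, chr16:17928220-17928469: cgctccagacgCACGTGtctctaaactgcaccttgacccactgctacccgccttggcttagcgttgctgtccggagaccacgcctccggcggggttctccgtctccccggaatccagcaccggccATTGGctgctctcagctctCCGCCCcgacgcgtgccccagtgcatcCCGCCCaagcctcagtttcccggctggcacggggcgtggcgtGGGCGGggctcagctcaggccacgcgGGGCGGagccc

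The capitals in Slc25a1 are an E-box (CACGTG), next the CCAAT box read on the other strand (ATTGG), and 4 GC boxes (GGGCGG, or CCGCCC on the other strand), with no overlap between them. None of the 10 motifs searched on both strands was found in the Slc25a10 window, which says only that these letters are not in these 250 bases. Besides these 3 motifs, the search covered TATAAA, the forkhead element GTAAACA, the sterol element TCACNCCAC and the ERR element TCAAGGTCA. It also covered the NRF1 element and the DR1 and DR4 nuclear receptor repeats. The window of Slc25a10 held 56% G and C and that of Slc25a1 held 70%, against a median of 52.4% over 32851 RefSeq windows. RefSeq windows were matched for 30 of the 37 tested carriers, with a median of 58.2% G and C. A GC box stood in 21 of the 30, against 32.7% of all windows, and a CCAAT box in 14 of the 30, against 33.8% of all windows. TATAAA stood in 0 of the 30, against 12.4% of all windows. The carrier windows were a single window for each tested gene, while all windows were limited neither to tested genes nor to a single window per gene. These comparisons are therefore between unlike sets and do not show a trait particular to carriers.

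Before the carriers, the labels were checked. Fto was at 1.79, 3.83 and 2.66 FPKM in knockout replicates 1, 2 and 3, against 6.67, 6.02 and 6.40 FPKM in wild type replicates 1, 2 and 3. The groups did not overlap, and residual Fto differed among the knockout libraries. The hepatocyte markers Apoa1, Ttr, Serpina1c, Cps1 and Tat were at 238 FPKM or more in every library. Of the 6 hepatocyte markers with Alb, limma called 0 (unadjusted, 2 were higher at 0.05, against 8.65% of all genes tested). These were Apoa1, at 7213 ± 718 FPKM in knockout and 4634 ± 1003 FPKM in wild type, and Cps1, at 378 ± 53.5 FPKM in knockout and 251 ± 13.1 FPKM in wild type. Alb, the albumin gene, was listed at 0 in knockout replicate 3 and wild type replicate 1, against 25046 FPKM or more in the others. Depth, inferred from the values, lay between 34140000 and 42530000 fragments a library, so a 2 kb transcript at 1 FPKM rested on about 68 fragments at the lowest depth. Of 8 Kupffer cell and macrophage markers, all 8 had higher means in the knockout and 0 were called by limma. Unadjusted, 3 were higher at 0.05, against 8.65% of all genes tested. Without wild type replicate 3, limma called 5 of the 8, all higher (of all 10374 genes, 552), and without knockout replicate 2 it called 1 (of all 10417 genes, 206). The smallest p were those of Marco, a scavenger receptor, at 4.52 ± 2.60 FPKM in knockout and 1.196 ± 0.368 FPKM in wild type, and of Lyz2, a lysozyme, at 62.5 ± 18.8 FPKM in knockout and 25.9 ± 18.8 FPKM in wild type. Their summed level ran from 130 to 233 FPKM in knockout and from 46.0 to 157 FPKM in wild type. Their part in the carrier results was not tested. Skeletal muscle markers summed to 0.185 FPKM or less in every library, and the fat cell markers Adipoq, Plin1, Lep, Retn and Cfd together to 0.691 to 1.25 FPKM in knockout and 4.47 to 6.95 FPKM in wild type. Cfd supplied most of these sums and was the 1 fat cell gene tested, and it was called lower in knockout (0.951 ± 0.317 FPKM, against 5.34 ± 1.10 FPKM in wild type). Lep had a value of 0 in every knockout library and in 2 of 3 wild type libraries, which gives no contrast. Adipoq had a value of 0 in every knockout library, against 0.0248 to 0.233 FPKM in wild type.

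Across libraries the family as a whole stood at like levels in both genotypes. Its summed level was 2149 ± 70.8 FPKM in knockout and 2262 ± 179 FPKM in wild type (SD, n = 3 each), which was 0.243% and 0.241% of the sum of the table. The means of tested carriers spanned a 372-fold range. Slc25a47, Slc25a5, Slc25a39, Slc25a3 and Slc25a1 together held 65.1 ± 2.08% of the family sum in knockout and 62.8 ± 2.68% in wild type. FPKM is scaled by length, so these levels can be set against each other between genes. Wild type replicate 3 had the highest family sum, 2463 FPKM, against 2118 and 2204 FPKM in wild type replicates 1 and 2. It also had the highest sum over the whole table, 1076602 FPKM, and the lowest family share of that sum, 0.229%. Its values for Slc25a5, Slc25a3, Slc25a1 and Ucp2 were the highest of the 6 libraries.

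**Figure D1:**
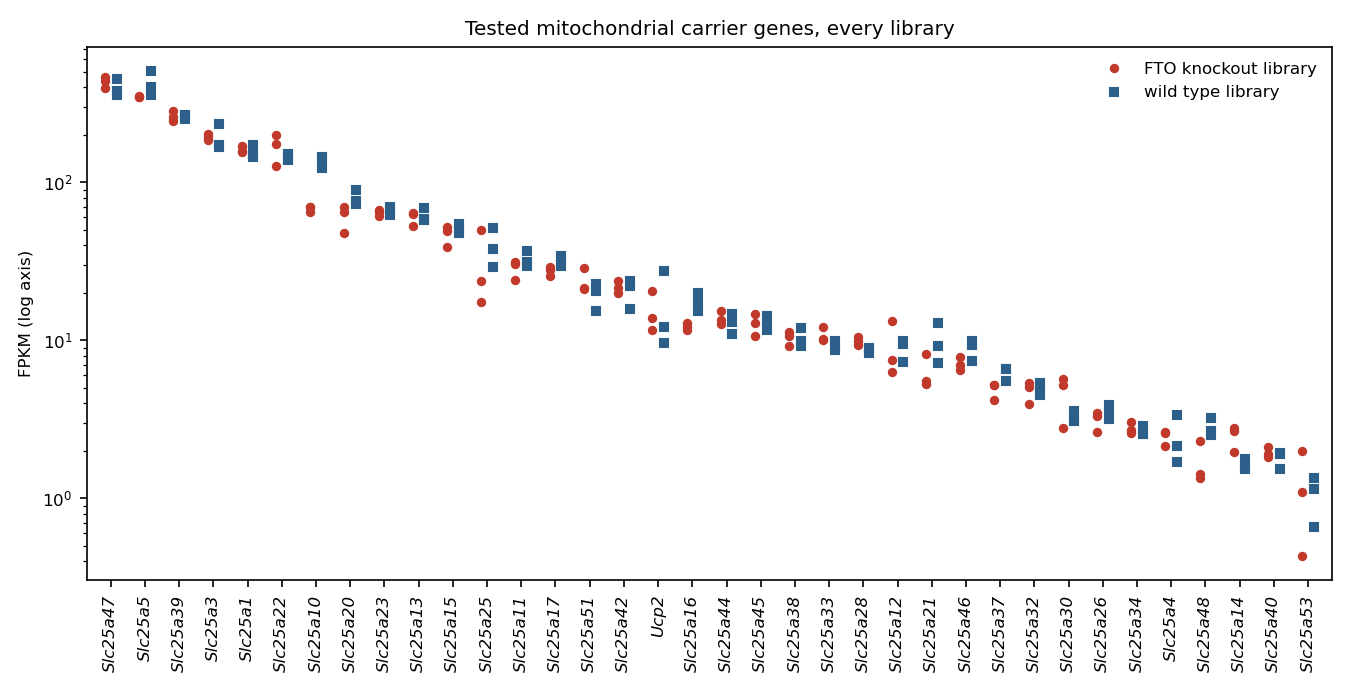
FPKM on a log axis of 36 tested carrier genes, ordered by mean level, with 1 red circle for each FTO knockout library and 1 blue square for each wild type library. The groups of Slc25a10 stand apart, with knockout libraries at 64.4 to 69.5 FPKM and wild type libraries at 122.7 to 144 FPKM, while those of most other carriers overlap or touch.

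Of the 37 tested carriers, 0 were higher and 1 was lower in knockout by limma at an adjusted p under 0.05, against 1.11% higher and 1.65% lower of the 10405 genes tested (2.76% in either direction). With an unadjusted p under 0.05 there were 1 higher carrier (8.65% of all genes were higher) and 6 lower carriers (10% of all genes were lower), in all 18.9% of those tested against 18.7% of all genes. The groups did not overlap for 11 carriers, which is 29.7% against 24.5% of all genes. Of these, 4 were higher (11.5% of all genes) and 7 were lower (13% of all genes). These shares lie near the background. The median log2 difference (knockout minus wild type, on log2(FPKM + 1)) was 0.0012 over the carriers and -0.0018 over all genes, and the median absolute difference was 0.15 for both.

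Carriers of di- and tricarboxylates and of the malate-aspartate shuttle held the called gene. Slc25a10 (ENSMUSG00000025792, chromosome 11, 120491840 to 120499187, mm10) was at 64.4, 69.3 and 69.5 FPKM in knockout replicates 1, 2 and 3, against 122.7, 142 and 144 FPKM in wild type replicates 1, 2 and 3. The knockout libraries lay close together, and the groups did not overlap. The mean was 67.8 ± 2.90 FPKM in knockout and 136 ± 11.7 FPKM in wild type (SD, n = 3 each), 49.7% of wild type. The log2 difference was -0.99 with an SE of 0.12 and a 95% interval of -1.27 to -0.72 (adjusted p 0.00678 in limma). The gene was called under all 12 other settings, which include leaving out each library in turn. In bulk tissue, fewer cells of a type and less RNA per cell cannot be told apart. A gene annotated antisense to it, Gm11788, shares 555 bases with Slc25a10. It is not among the 16 other genes found in the deposited table within 100 kb, so it had no value to analyse. The sources used here do not say whether counting used strand, and without it the reads of such a pair cannot be told apart.

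Slc25a10 was also set against other carriers of the same library. Since it was picked for its difference and the other carriers were not called, these ratios describe that difference again and are no further test of it. The ratio to Slc25a1 was 0.378, 0.446 and 0.438 in knockout replicates 1, 2 and 3, against 0.824, 0.978 and 0.834 in wild type replicates 1, 2 and 3. The ratio to Slc25a22 was 0.418 ± 0.0805 in knockout and 0.956 ± 0.0718 in wild type, and that to Slc25a11 was 2.38 ± 0.252 in knockout and 4.21 ± 0.534 in wild type. The share of Slc25a10 in the family sum was 3.16 ± 0.182% in knockout and 6.03 ± 0.344% in wild type. In each of these 4 comparisons the groups did not overlap. Slc25a10 ranked eighth, seventh and seventh of the 50 carriers in knockout replicates 1, 2 and 3, and seventh, seventh and sixth in wild type replicates 1, 2 and 3.

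**Figure D2:**
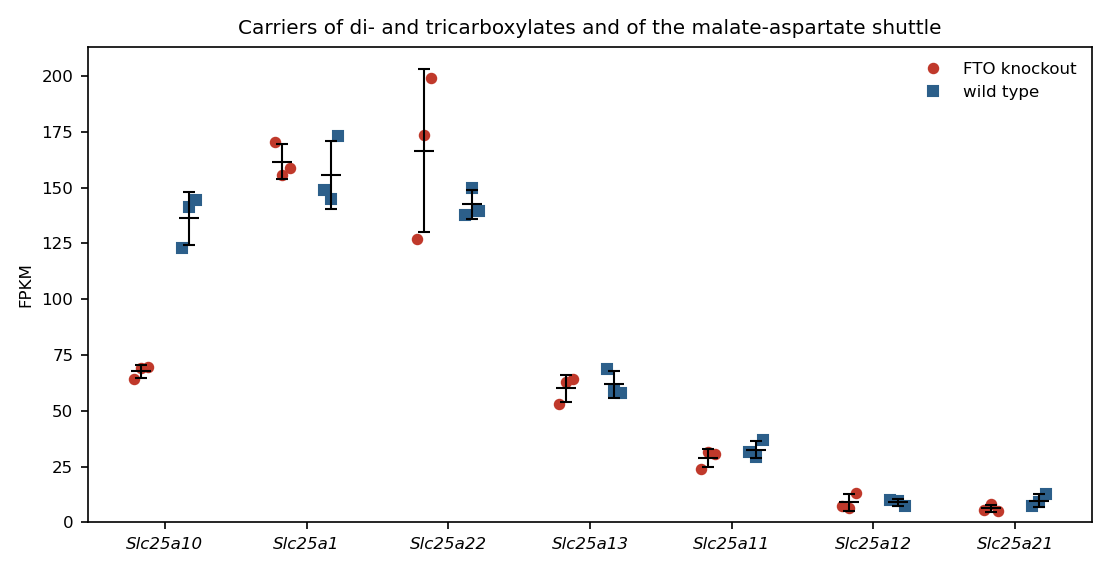
FPKM of the 7 tested carriers of di- and tricarboxylates and the malate-aspartate shuttle in each library (red circles, FTO knockout; blue squares, wild type), with the mean and SD of 3 libraries as bars. Slc25a10 is the 1 gene whose groups are apart, at 67.8 FPKM in knockout and 136 FPKM in wild type.

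The other carriers of this group were not called. Slc25a1, which exports citrate for fatty acid synthesis, was at 170, 156 and 159 FPKM in knockout, against 149, 145 and 173 FPKM in wild type, with a 95% interval of the log2 difference of -0.23 to 0.34. The interval for Slc25a1 therefore does not reach the size seen for Slc25a10. Slc25a22, a glutamate carrier, was at 127, 174 and 199 FPKM in knockout, against 138, 150 and 140 FPKM in wild type. The knockout libraries of Slc25a22 spread on both sides of wild type. Slc25a11, the oxoglutarate and malate carrier of the malate-aspartate shuttle, was at 24.1, 31.5 and 30.5 FPKM in knockout, against 31.5, 29.3 and 36.9 FPKM in wild type.

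The aspartate and glutamate carriers were also not called. Slc25a13, or citrin, the main such carrier of liver, was at 53.0, 62.9 and 64.2 FPKM in knockout, against 68.6, 58.7 and 58.1 FPKM in wild type (95% interval -0.34 to 0.26). Slc25a12, or aralar, lay lower, at 8.98 ± 3.69 FPKM in knockout and 8.94 ± 1.39 FPKM in wild type, and the ratio of Slc25a13 to Slc25a12 was 7.33 ± 2.60 in knockout and 6.99 ± 0.882 in wild type. Citrin was thus the more abundant of the pair in all 6 libraries. Slc25a21, a carrier of oxoadipate, was at 5.53, 8.21 and 5.31 FPKM in knockout, against 7.24, 9.16 and 12.9 FPKM in wild type, with overlapping groups (log2 difference -0.54, adjusted p 0.246 in limma).

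Carriers of adenine nucleotides and phosphate had 0 calls by limma among 5 tested genes, and 0 passed an unadjusted 0.05. Slc25a5, the adenine nucleotide translocase 2 that exchanges ADP for ATP, was at 354, 346 and 348 FPKM in knockout, against 355, 400.5 and 504 FPKM in wild type. All knockout libraries lay below wild type, but knockout replicate 1 and wild type replicate 1 were almost level. Its log2 difference was -0.25 (SE 0.15, adjusted p 0.437 in limma), and without wild type replicate 3 it was -0.11. Slc25a4, the translocase of heart and muscle, was at 2.46 ± 0.261 FPKM in knockout and 2.41 ± 0.867 FPKM in wild type, so Slc25a5 exceeded it 143-fold in knockout and 181-fold in wild type. Slc25a4 and Slc25a5 are close paralogs and Slc25a5 has an annotated pseudogene copy, so reads that fit several of them make these values uncertain.

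Slc25a3, the phosphate carrier, was at 186, 194 and 201 FPKM in knockout, against 168, 173 and 235 FPKM in wild type. Its knockout libraries lay between those of wild type. Slc25a23, a calcium-regulated carrier of ATP-Mg and phosphate, was at 61.3, 67.0 and 64.5 FPKM in knockout, against 69.3, 68.0 and 61.6 FPKM in wild type (95% interval -0.30 to 0.21). Slc25a25, of the same kind, was at 49.97, 17.5 and 23.7 FPKM in knockout, against 37.6, 51.4 and 29.3 FPKM in wild type. It varied most of this group, with a 2.94-fold range over the 6 libraries, and its interval of -1.32 to 0.39 includes a difference as large as that of Slc25a10.

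Slc25a20, which carries acylcarnitines into the matrix for fatty acid oxidation, was at 69.4, 47.8 and 64.6 FPKM in knockout, against 89.3, 73.4 and 76.2 FPKM in wild type. All knockout libraries lay below wild type, at 76.1% of its mean, but the gene was not called (log2 difference -0.40, SE 0.17, adjusted p 0.249 in limma). Without knockout replicate 2, its lowest library, the log2 difference was -0.24. A list of Ppara, which encodes PPAR alpha, the fatty acid receptor of hepatocytes, and of its targets held 34 tested genes. Of these limma called 8, all lower, against the 1.65% of all genes given above, and left 26 without a call. Log2 differences were below 0 for 30 and above 0 for 4. That list was chosen with results of these data known, and its count was 5 without knockout replicate 1 and 4 with no filter. The 4 with the smallest p were Cidea, Cd36, Acot3 and Acaa1b. Cidea, a lipid droplet protein, was at 0.199, 0.318 and 0.254 FPKM in knockout, against 27.8, 35.8 and 36.7 FPKM in wild type. Cd36, a fatty acid transporter, was at 8.03, 11.4 and 9.13 FPKM in knockout, against 45.0, 50.5 and 49.7 FPKM in wild type. Neither gene had overlapping groups. Acot3, an acyl-CoA thioesterase, averaged 7.33 ± 0.505 FPKM in knockout and 25.3 ± 4.17 FPKM in wild type, and Acaa1b, a peroxisomal thiolase, averaged 470 ± 70.6 FPKM in knockout and 1202 ± 161 FPKM in wild type. Slc25a20 is known as a target of that receptor, whose part in the level of Slc25a20 was not tested.

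Amino acid carriers had 0 calls by limma among 3 tested genes, and 0 passed an unadjusted 0.05. Slc25a15, the ornithine carrier of the urea cycle, was at 39.1, 49.1 and 52.0 FPKM in knockout, against 49.8, 54.3 and 47.8 FPKM in wild type. Slc25a38, which brings glycine into the matrix for heme synthesis, was at 9.24, 10.7 and 11.2 FPKM in knockout, against 9.18, 9.92 and 11.99 FPKM in wild type. Slc25a44, a carrier of branched-chain amino acids, was at 12.7, 15.4 and 13.4 FPKM in knockout, against 10.995, 13.1 and 14.7 FPKM in wild type. The groups of all 3 overlapped, and their 95% intervals lay within -0.44 and 0.41.

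Carriers of cofactors, nucleotides and glutathione numbered 10 tested genes, of which limma called 0. With an unadjusted p under 0.05 there was 1, against 18.7% of all genes. That gene was Slc25a16, linked to coenzyme A in mitochondria. It was at 11.6, 12.1 and 12.9 FPKM in knockout, against 20.0, 17.1 and 15.3 FPKM in wild type. The groups did not overlap, and the log2 difference was -0.48 (SE 0.12, 95% interval -0.77 to -0.19, adjusted p 0.0947 in limma). Without wild type replicate 3, the lowest wild type library, Slc25a16 was called with an adjusted p of 0.0396 and a log2 difference of -0.57. That fit called 2 of 37 carriers and 552 of all 10374 genes tested, against 287 of 10405 genes with all libraries. Over the 12 other settings the adjusted p of Slc25a16 ran from 0.0396 to 0.277.

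Slc25a39, a glutathione carrier and the third most abundant of the family, was at 282, 244 and 259 FPKM in knockout, against 265, 253 and 262 FPKM in wild type (95% interval -0.26 to 0.28). Its libraries lay close together in both groups. Slc25a17, a peroxisomal carrier of coenzyme A and other cofactors, was at 27.8, 29.0 and 25.5 FPKM in knockout, against 29.4, 31.6 and 34.4 FPKM in wild type. All knockout libraries of Slc25a17 lay below wild type, without a call (adjusted p 0.391 in limma). Other tested genes of the group were Slc25a26, Slc25a32, Slc25a33, Slc25a40, Slc25a42 and Slc25a51. Their log2 differences lay between -0.15 and 0.28.

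The 2 mitoferrins import iron into mitochondria. Slc25a37, mitoferrin 1, best known from red cell precursors, was at 5.20, 5.25 and 4.22 FPKM in knockout, against 6.56, 6.62 and 5.54 FPKM in wild type. Slc25a28, mitoferrin 2, was at 9.40, 9.93 and 10.5 FPKM in knockout, against 8.27, 8.96 and 8.75 FPKM in wild type. The groups of both genes did not overlap, with Slc25a37 below and Slc25a28 above wild type, and neither was called (adjusted p 0.238 and 0.383 in limma). Of 6 erythroid markers 5 were tested and 0 were called by limma (unadjusted, 4 were lower at 0.05, against 10% of all genes). The smallest p were those of the globin genes Hba-a2, at 114 ± 24.2 FPKM in knockout and 199 ± 81.0 FPKM in wild type, and Hbb-bt, at 51.6 ± 12.2 FPKM in knockout and 89.7 ± 33.4 FPKM in wild type, whose near-identical copies make single values uncertain. The markers summed to 399, 316 and 457 FPKM in knockout replicates 1, 2 and 3, against 406, 660 and 875 FPKM in wild type replicates 1, 2 and 3. Their part in the level of Slc25a37 was not tested.

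Of the uncoupling proteins and their relatives 3 of 6 were tested, and 0 were called by limma. Unadjusted, 1 was higher at 0.05, against 8.65% of all genes. Ucp2, which in liver is known mainly from macrophages and from fatty hepatocytes, was at 11.6, 13.8 and 20.4 FPKM in knockout replicates 1, 2 and 3, against 9.55, 12.2 and 27.6 FPKM in wild type replicates 1, 2 and 3. The highest value was that of wild type replicate 3. The Kupffer cell and macrophage markers summed to 178, 130 and 233 FPKM in knockout replicates 1, 2 and 3, against 46.0, 77.9 and 157 FPKM in wild type replicates 1, 2 and 3. Their part in the level of Ucp2 was not tested. The log2 difference of Ucp2 was 0.00 with a 95% interval of -0.85 to 0.85, and it was 0.43 without wild type replicate 3. With an interval this wide, little can be said of Ucp2 in these libraries.

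Slc25a14, a relative of the uncoupling proteins best known from brain, was at 1.97, 2.78 and 2.69 FPKM in knockout, against 1.60, 1.77 and 1.53 FPKM in wild type. All knockout libraries lay above wild type, without a call (log2 difference 0.39, SE 0.12, adjusted p 0.150 in limma). Slc25a30, best known from kidney, was at 5.71, 2.79 and 5.23 FPKM in knockout, against 3.58, 3.17 and 3.09 FPKM in wild type. Knockout replicate 2 lay below the wild type libraries, so the groups overlapped.

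Among carriers with less settled substrates, 0 of 6 tested genes were called by limma. Unadjusted, 1 was lower at 0.05, against 10% of all genes. Slc25a47, a carrier made mainly by liver and the most abundant of the family, was at 465, 395 and 439 FPKM in knockout, against 359, 378 and 448 FPKM in wild type (95% interval -0.19 to 0.46). The groups overlapped. Slc25a48 was at 1.34, 2.31 and 1.42 FPKM in knockout, against 2.52, 3.22 and 2.67 FPKM in wild type, with a log2 difference of -0.51 (adjusted p 0.141 in limma) and no overlap. Slc25a46, a protein of the outer membrane involved in mitochondrial shape, was at 6.97, 6.495 and 7.81 FPKM in knockout, against 9.39, 9.84 and 7.42 FPKM in wild type (adjusted p 0.305 in limma). Slc25a34, Slc25a45 and Slc25a53 had log2 differences of -0.02 to 0.04.

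**Figure D3:**
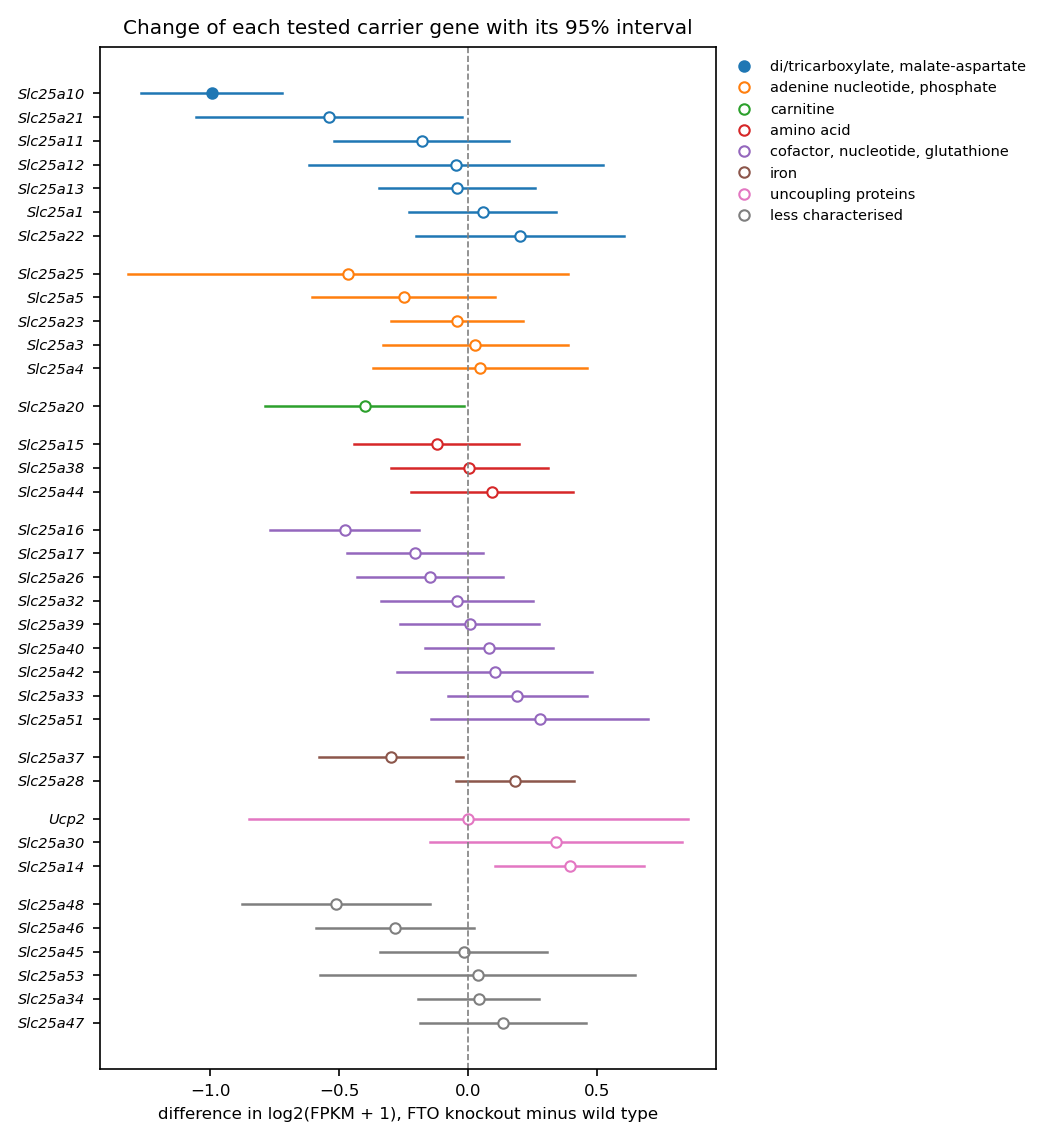
Difference in log2(FPKM + 1), FTO knockout minus wild type, of 36 tested carriers with 95% intervals from limma, grouped and coloured by role. The filled point, Slc25a10 at -0.99, is the 1 called gene; open points were not called and run from -0.54 to 0.39.

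The other 13 carriers had a mean under 1 FPKM and were not tested; none of their values exceeded 0.988 FPKM in any library. Slc25a29 and Slc25a36 lay at 0.415 to 0.988 FPKM. Slc25a35, Slc25a24, Slc25a27, Slc25a2, Slc25a18, Slc25a43, Slc25a31, Ucp3 and Ucp1 followed in order of mean level. Ucp1, the uncoupling protein of brown fat, was listed at 0 in 5 libraries and at 0.0154 FPKM in knockout replicate 3. Slc25a41 and Slc25a54 were listed at 0 in all 6 libraries.

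Of 5 pairs of carriers that lie side by side in the genome, 4 differ widely in level. Slc25a29 and Slc25a47 on chromosome 12 are separated by 163 bases of annotation, and Slc25a47 exceeded Slc25a29 by 516 ± 104 times in knockout and 451 ± 67.8 times in wild type. Ucp3 and Ucp2 lie 6905 bases apart on chromosome 7, at means over all 6 libraries of 0.0293 and 15.9 FPKM. Slc25a43 and Slc25a5 on the X chromosome had means of 0.0354 and 385 FPKM. Slc25a41 and Slc25a23 on chromosome 17 stood at 0 and 65.3 FPKM. In each of these 4 pairs only 1 neighbour had a mean of 1 FPKM or more. In the fifth adjacent pair, Slc25a54 and Slc25a24 on chromosome 3, 6462 bases apart, neither did, with means of 0 and 0.267 FPKM.

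Genes near Slc25a10 had differences of either sign. Of 16 other genes in the table within 100 kb of it, 13 were tested, 1 was called, against 2.76% of all genes, and 2 had an unadjusted p under 0.05, against 18.7% of all genes. The called gene was Arhgdia, which rose to 40.1 ± 2.13 FPKM in knockout, against 20.0 ± 2.16 FPKM in wild type (log2 difference 0.97, adjusted p 0.00723 in limma). The gene just before Slc25a10 on the same strand, Mrpl12, which encodes a mitochondrial ribosomal protein, ends 2775 bases from it. Mrpl12 was at 102, 104 and 108 FPKM in knockout, against 83.1, 91.5 and 108 FPKM in wild type, and was not called (log2 difference 0.16, adjusted p 0.568 in limma). Oxld1, the other gene with an unadjusted p under 0.05, was lower than wild type like Slc25a10, at 11.4 ± 1.83 FPKM in knockout and 15.6 ± 1.96 FPKM in wild type, without a call (log2 difference -0.43, adjusted p 0.172 in limma). Gm16755, a noncoding RNA annotated within Mrpl12 on the other strand, also had a negative log2 difference, -0.29, without a call (adjusted p 0.336 in limma).

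**Figure D4:**
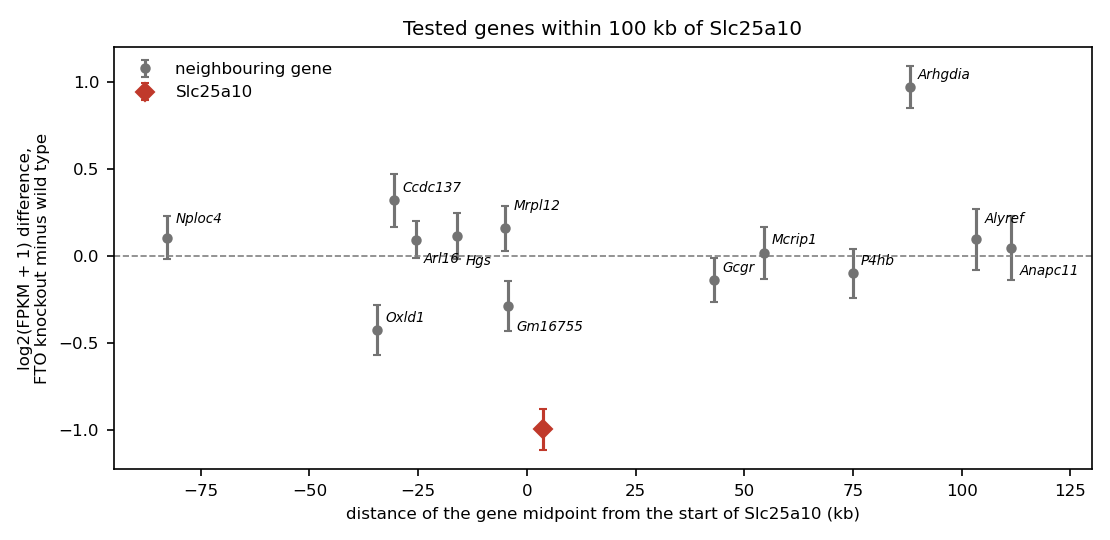
Log2(FPKM + 1) difference, FTO knockout minus wild type, with its standard error, of the 13 tested genes within 100 kb of Slc25a10 (grey) and of Slc25a10 (red diamond) against the distance of the gene midpoint from the start of Slc25a10 in kb. Slc25a10 lies at -0.99 and Arhgdia at 0.97, and the other neighbours lie between -0.43 and 0.32.

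The letters GGACT, the DNA spelling of a common sequence around N6-methyladenosine, were counted in the longest protein-coding GENCODE transcript of each gene. Slc25a10 held 2 in 2023 bases, or 0.989 per kb, and Slc25a16 held 2 in 3145 bases. The tested carriers had a median of 1.13 per kb, against 1.04 per kb over 9786 tested protein-coding genes. At least 1 match stood in 35 of 37 carriers and in 91.2% of those genes. A match shows only the letters, not a methylated base.

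Other genes of mitochondrial transport were looked at beside the carriers. Of 22 tested genes of other mitochondrial membrane transporters, such as the pyruvate carrier and the porins, limma called 0. Unadjusted, 0 were higher and 2 lower at 0.05 (8.65% and 10% of all genes), and the median log2 difference was -0.19. The 2 were Abcb8, a transporter of the inner membrane, at 8.14 ± 0.948 FPKM in knockout and 10.7 ± 0.160 FPKM in wild type, and Sfxn5, a sideroflexin, at 5.55 ± 0.533 FPKM in knockout and 7.12 ± 0.502 FPKM in wild type. Of 21 tested genes of mitochondrial protein import, which include the route of the carriers, limma called 0 and 0 passed an unadjusted 0.05. The median log2 difference of the 21 was 0.06. Timm10, an import chaperone of the intermembrane space, averaged 35.2 ± 1.082 FPKM in knockout and 29.1 ± 8.40 FPKM in wild type. Tomm22, a receptor of the outer membrane, averaged 48.9 ± 2.04 FPKM in knockout and 42.7 ± 5.71 FPKM in wild type.

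Of 32 tested enzymes that share substrates with the carriers, limma called 1, which was lower, and left 31 without a call, against the 2.76% of all genes given above. Unadjusted, 2 were higher (8.65% of all genes were) and 8 lower (10% of all genes were) at 0.05. In either direction 31.25% of the list passed, against 18.7% of all genes. The called gene was Gldc, the glycine decarboxylase of the matrix. It was at 11.3, 14.7 and 15.6 FPKM in knockout, against 28.2, 30.2 and 24.5 FPKM in wild type, with no overlap. The call did not hold with no filter, nor without knockout replicate 1, knockout replicate 3 or wild type replicate 2. With median ratio scaling and with quantile normalization limma called 2 of the 32, both lower. Those fits called 339 of all 10398 genes and 405 of all 10405 genes. The 13 protein-coding genes of the mitochondrial genome had 0 calls by limma. Unadjusted, 0 were higher and 1 lower at 0.05 (8.65% and 10% of all genes), and the median log2 difference was -0.18. The smallest p were those of mt-Cytb, at 8876 ± 355 FPKM in knockout and 11576 ± 1498 FPKM in wild type, and mt-Nd5, at 1591 ± 212 FPKM in knockout and 1972 ± 81.1 FPKM in wild type. Without wild type replicate 3, limma called 1 of the 13 and 1 of the 22 other membrane transporters, in a fit that called 552 of all 10374 genes. The 13 summed to 214876, 242169 and 225706 FPKM in knockout, against 255617, 253514 and 250189 FPKM in wild type. Their part in the change of Slc25a10 was not tested.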

How the data were processed

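The deposited table gave FPKM per gene under Ensembl identifiers; its unit was inferred from the column sums and from the submitters' processing notes, which name TopHat2 2.1.0, HTSeq, Cufflinks 2.2.1 and mm10 without roles. GENCODE M21 on GRCm38, which is mm10, supplied symbols and coordinates for 24807 of 25690 identifiers, and RefSeq (GRCm38.p6) the promoter windows. Depth was inferred from what 1 fragment is worth in 964 single-transcript genes of 3000 to 8000 bases, as the median of values that gave 25000000 to 50000000 fragments. Counts were not recovered, so no count model was used.

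Groups followed the genotype label. Replicate numbers follow sample order and pair nothing. limma 3.58.1 in R 4.3.3 (intensity trend, two-sided) was run on log2(FPKM + 1). It covered the 10405 genes averaging 1 FPKM or more, with Benjamini-Hochberg adjustment over all of them and calls at an adjusted p under 0.05. Log2 differences on this scale understate low genes. Other settings were a pseudocount of 0.1, no filter, a minimum of 5 FPKM, robust empirical Bayes, quantile normalization, median ratio scaling and leaving out each library. On simulated data for this comparison (10405 genes), limma called 76 of 100 genes given a log2 difference of 1 and 99 of 100 given one of 2. Of its 183 calls, 8 were false. The simulated noise was independent between genes, with no shift shared by a library, so these counts need not hold for the real libraries.

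Named with library values were called carriers, the 3 smallest p of each role group and the 10 most abundant carriers, and from the other lists given with values up to 4 called genes or else 2 by p. Markers of sinusoidal endothelium, stellate cells, bile duct and lymphocytes (6, 4, 1 and 1 tested) had 0 calls by limma, and their genes are not named. Of these, 1 endothelial gene passed an unadjusted 0.05, against 18.7% of all genes. Arhgdia, Oxld1, Gm16755, Mrpl12 and the pairs of adjacent carriers were named after their values were seen, as were Slc25a4 and Slc25a12 and the carriers named by range. The members and lists were chosen with earlier results of these data known. The values of 1 tested carrier are not reported here, and it is counted in the totals but not drawn.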

Additional observations from a re-analysis of the deposited data

How the results depend on the processing

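No paired analysis was possible because the labels give the groups no shared replicate numbers. Slc25a10 kept its direction and its call under all 12 alternatives, with log2 differences of -1.07 to -0.94 and adjusted p-values of 0.00475 to 0.0452 in limma. The number of carriers called stayed at 1, and reached 2 without wild type replicate 3 (range 1 to 2 with a library left out). The median log2 difference of the carriers ran from -0.05 to 0.04. The number of all genes called was 79 with no filter, 165 with a minimum of 5 FPKM, and 92 to 552 with a library left out. The 552 came without wild type replicate 3, against 287 with all libraries. Calls over the other gene lists, 10 in all, became 4 with no filter and 6 to 17 with a library left out. Fto lost its call with no filter (log2 difference -1.004, adjusted p 0.197 in limma). It also lost it without knockout replicate 1, knockout replicate 3, wild type replicate 1 or wild type replicate 2. With a minimum of 5 FPKM Fto was not tested, since its mean over all libraries was 4.56 FPKM. Its log2 differences ran from -1.20 to -0.81 over the 6 fits that left out a library. The causes were not tested. With 3 libraries a group, the 95% intervals of carriers not called reach as low as -1.32 on the log2 scale (Slc25a25).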
